A study of Arvicanthis niloticus with 7 samples.

Results

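The 8 apolipoprotein genes *Apoa1*, *Apoa2*, *Apoa4*, *Apoc1*, *Apoc3*, *Apoc4*, *Apoe* and *Apon* were followed across the liver arrays of young Nile rats (NRs, *Arvicanthis niloticus*). They are 8 of the 16110 gene symbols that the array annotation holds, and every probe with 1 of these symbols was taken, which gave 9 of 25697 probes, 2 of them for *Apoc1*. All arrays came from male NRs, rodents that develop type 2 diabetes on high-carbohydrate diets, which were labelled as 3 weeks old and fed for 4 weeks. The 3 PFJ arrays were from NRs given palm fruit juice, an aqueous extract of oil palm fruit rich in phenolic acids, within a diet that held 70% of its energy as carbohydrate, 10% as fat and 20% as protein, with 5.4 g per kg of gallic acid equivalents. The 4 control arrays were from NRs given the same diet without juice, so that no array here was from a low-carbohydrate diet. The labels do not name the animal behind an array, and p-values therefore measure the spread between these samples.

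Apolipoproteins are the protein coat of the particles that carry lipid in plasma, and the hepatocyte secretes most of them. The A family builds high-density lipoprotein (HDL) and helps to take up cholesterol from tissues. The C family rides on triglyceride-rich particles and tunes their lipolysis and uptake, and apolipoprotein E is the ligand by which hepatic receptors clear their remnants.

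Labelled cRNA had been hybridised to BeadChips with mouse probes, so that a NR transcript unlike the mouse sequence under its probe can give little signal. A probe is called detected here where its signal had a detection p under 0.01 against the negative controls of the array, and 4689 to 5137 probes per array met this. Log2 values are those after background correction and quantile normalisation in limma, and a gene was tested where at least 3 of the 7 arrays detected its probe. Background lay at 133 to 151 signal units and the brightest probe at 69781 to 71500 units. Control replicates 3 and 4 stood apart from the other 5 arrays. Over the 3734 genes tested, r between the log2 values of these 2 arrays was 0.986, r between either of them and the remaining 5 was 0.759 to 0.778, and r among those 5 was 0.955 to 0.979. These are correlations across genes, which are not independent replicates. Of 20 genes for proteins of hepatocyte secretion on the array, 14 were tested. Of these, 13 had their lowest 2 log2 values on control replicates 3 and 4, as did 30.2% of all tested genes. The summed signal of the 14 genes was 601949 to 631023 units on the other 5 arrays against 14069 and 16834 units on these 2. The probe of albumin was not detected on any array. Of 5 tested kidney tubule genes, *Aqp1*, *Slc12a3*, *Miox* and *Cyp4b1* had their highest 2 values on control replicates 3 and 4, and *Slc27a2*, which liver also expresses, had its lowest 2 there. Their summed signal was 33703 to 56825 units on the 5 arrays against 111690 and 89142 units on control replicates 3 and 4. Of 24 kidney tubule genes on the array, 7 had a probe detected on these 2 arrays and on no other, among them *Umod*, the main protein of normal urine, at 66980 and 64375 units against 114 to 188 units elsewhere. The shares of all genes highest, or detected only, on these 2 arrays were not counted. By the markers named, the 2 arrays go against their liver label, and the part this plays in the apolipoprotein values was not tested. Each comparison is given for all 7 arrays and for the 5 arrays without them.

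All 8 genes had a detected probe on each PFJ array, and they followed 2 patterns on the control arrays. *Apoa1* and *Apoc1* were at background on all 4 control arrays and passed the filter on detection through the PFJ arrays alone, so that only a gene high with PFJ could be tested in this way. *Apoa2*, *Apoa4*, *Apoc3*, *Apoc4*, *Apoe* and *Apon* were detected on control replicates 1 and 2 at signals that overlapped those of the PFJ arrays, and were lowest on control replicates 3 and 4. The values of these 6 genes on control replicates 3 and 4 lay below all other 5 arrays, which was so for 30.2% of all tested genes. In RNA from whole tissue, fewer cells of a type and less RNA per cell cannot be told apart.

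**Figure D1:**
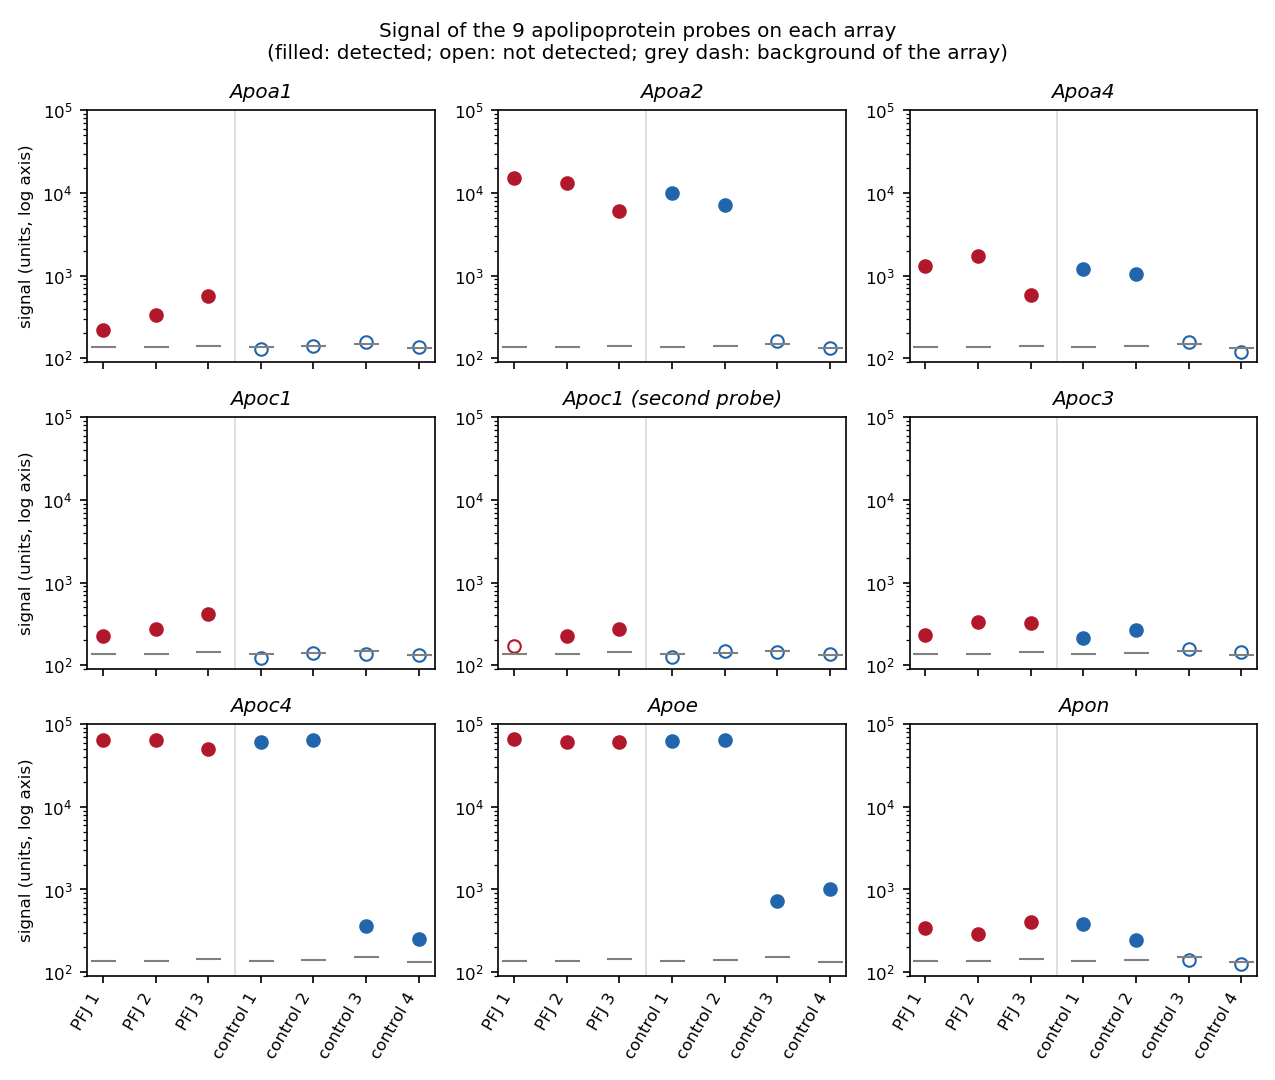
Signal (units, log axis) of each of the 9 apolipoprotein probes on the 3 PFJ arrays (red) and the 4 control arrays (blue), where filled points were detected, open points were not, and the grey dash is the background of that array. The probes of *Apoa1* and *Apoc1* reach background on every control array, and the other 6 genes drop only on control replicates 3 and 4.

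*Apoa1* encodes the main structural protein of HDL, which also activates the enzyme Lcat. Its probe gave 219, 331 and 564 units on PFJ replicates 1, 2 and 3, against 131, 139, 158 and 136 units on control replicates 1, 2, 3 and 4. PFJ replicate 3 was the highest and PFJ replicate 1 the lowest of the PFJ arrays, the groups did not overlap, and no control array was above 1.05 times its background. The log2 values averaged 7.87 ± 1.27 with PFJ (SD, n = 3) and 4.92 ± 0.08 in controls (SD, n = 4). This gave a log2 fold change of 2.94 ± 0.54 (standard error), with an unadjusted p of 0.000928 and an adjusted p of 0.561 from limma. Because no control array detected the probe, its normalised value with PFJ can only be called at least 2.90-fold higher. This bound sets the mean log2 value of the PFJ arrays against the lowest detected value on each control array, or the value of the probe where that was higher. It was at least 1.83-fold without PFJ replicate 3 and at least 4.39-fold without PFJ replicate 1.

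*Apoa2*, the second most abundant protein of HDL, was bright and spread widely. It gave 15233.5, 13128 and 6124 units on PFJ replicates 1, 2 and 3, against 9919, 7056, 163 and 132 units on control replicates 1, 2, 3 and 4. The lowest PFJ array, replicate 3, lay below control replicates 1 and 2 by signal and below control replicate 1 alone of these 2 by log2 value. The groups thus overlapped, and the probe was not detected on control replicates 3 and 4. Its log2 fold change of 4.42 carried a standard error of 2.32, and the adjusted p from limma was 0.561. Without control replicates 3 and 4 it was 0.43, with a 95% interval of -0.36 to 1.21, which spans 0.781-fold to 2.32-fold. Within the control group, the normalised values of replicates 1 and 2 were at least 105-fold above those of replicates 3 and 4.

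*Apoa4* encodes an apolipoprotein of chylomicrons and HDL that the intestine makes in quantity and the rodent liver makes too. It gave 1308, 1711 and 583 units on PFJ replicates 1, 2 and 3, against 1209.7, 1035, 158 and 120.4 units on control replicates 1, 2, 3 and 4. As with *Apoa2*, PFJ replicate 3 had the lowest signal of the 5 arrays that detected it and the groups overlapped. Over all arrays limma gave a log2 fold change of 2.59 with a standard error of 1.52 and an adjusted p of 0.561, and without control replicates 3 and 4 a change of 0.02 with a 95% interval of -0.98 to 1.02. The normalised values of control replicates 1 and 2 were at least 13.1-fold above those of control replicates 3 and 4. Of 10 enterocyte marker genes on the array, *Anpep*, an aminopeptidase also found outside the gut, was the only 1 that was tested, at a log2 fold change of -0.43.

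*Apoc1*, whose product slows the receptor-mediated uptake of lipoproteins, had 2 probes. The brighter gave 224, 271 and 414 units on PFJ replicates 1, 2 and 3, against 121, 139.9, 136 and 133 units on control replicates 1, 2, 3 and 4. It was detected on each PFJ array and on no control array, without overlap, and PFJ replicate 3 was again the highest and PFJ replicate 1 the lowest. The dimmer gave 169, 227 and 272 units with PFJ, against 127, 149, 145 and 137 units in controls. The order of the PFJ arrays was the same, but on PFJ replicate 1 this probe was not detected, and it was left out of the test because fewer than 3 arrays detected it. Across the 7 arrays the log2 values of the 2 probes correlated at r = 0.971, a description of probes that share their transcript and their libraries. The brighter probe averaged a log2 value of 7.52 ± 0.95 with PFJ (SD, n = 3) and 4.81 ± 0.11 in controls (SD, n = 4), which is a difference of 2.71 on the log2 scale with a standard error of 0.42, an unadjusted p of 0.000334 and an adjusted p of 0.416 from limma. Its normalised value was at least 2.29-fold higher with PFJ, and that of the dimmer probe at least 1.24-fold higher. Without PFJ replicate 3 the first bound was at least 1.59-fold, and no fold could be given for the dimmer probe.

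*Apoc3*, an inhibitor of lipoprotein lipase and of remnant clearance, gave 233, 334 and 321 units on PFJ replicates 1, 2 and 3, against 216, 268, 157 and 145 units on control replicates 1, 2, 3 and 4. Control replicate 2 lay above PFJ replicate 1, so the groups overlapped, and control replicates 3 and 4 did not detect the probe. Limma gave it a log2 fold change of 1.53 with a standard error of 0.64, an unadjusted p of 0.0481 and an adjusted p of 0.561. Without control replicates 3 and 4 the fold change was 0.57, with a 95% interval of -0.41 to 1.54 and an unadjusted p of 0.204. All 5 arrays that detected *Apoc3* lay within 1.60 to 2.42 times background, so that its readings were near the lower end of the scale.

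*Apoc4*, a minor protein of very low-density lipoprotein made mainly by the liver, was among the brightest probes of the chip. It gave 64034, 63736 and 50735 units on PFJ replicates 1, 2 and 3, against 60194.5, 64290, 361 and 255 units on control replicates 1, 2, 3 and 4. Every array detected it, PFJ replicate 3 was the lowest of the 5 bright arrays, and control replicates 3 and 4 remained at 2.40 and 1.92 times background. Over all arrays the PFJ mean was 4.32 above the control mean on the log2 scale, with a standard error of 2.51 and an adjusted p of 0.561 from limma. Without control replicates 3 and 4 it was -0.03, with a 95% interval of -0.49 to 0.42, or 0.713-fold to 1.34-fold.

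*Apoe*, the receptor ligand of remnant particles that macrophages and other cells make as well as hepatocytes, varied least of the 8 over the 5 arrays without control replicates 3 and 4. It gave 65559.9, 61601 and 60294 units on PFJ replicates 1, 2 and 3, against 62739, 64495, 730.3 and 1019 units on control replicates 1, 2, 3 and 4. The 5 bright arrays differed by 1.09-fold from the highest to the lowest, and the PFJ values enclosed those of control replicates 1 and 2. Control replicates 3 and 4 kept a clear signal, at 4.85 and 7.68 times background, and control replicate 4 was the higher of them, whereas *Apoc4* was higher on control replicate 3. Limma put its log2 fold change at 3.32, with a standard error of 1.92 and an adjusted p of 0.561. In the 5 arrays the mean log2 values were 15.93 with PFJ and 15.93 in control replicates 1 and 2, and the 95% interval of their difference was -0.44 to 0.44, or 0.736-fold to 1.36-fold. On these 5 arrays *Apoe* lay at 85.3 to 92.5% and *Apoc4* at 71.8 to 90.4% of the brightest signal of the array, so that their readings were near the upper end of the scale. Of 13 macrophage genes on the array 3 were tested, and *C1qa* and *C1qc* were lowest on control replicates 3 and 4, while *Lyz2* was at 8.29 on control replicate 3 and at 9.46 on control replicate 4, the second of these within its range of 9.06 to 9.65 on the 5 other arrays.

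*Apon*, a little-studied protein that travels with plasma lipoproteins, gave 339, 286 and 402 units on PFJ replicates 1, 2 and 3, against 378, 243, 139 and 126 units on control replicates 1, 2, 3 and 4. Control replicate 1 lay above PFJ replicates 1 and 2, and the probe was not detected on control replicates 3 and 4. Over all arrays its log2 fold change was 1.77, the standard error 0.87 and the adjusted p 0.561 from limma, and it was 0.38 without control replicates 3 and 4, with a 95% interval of -0.64 to 1.41.

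**Figure D2:**
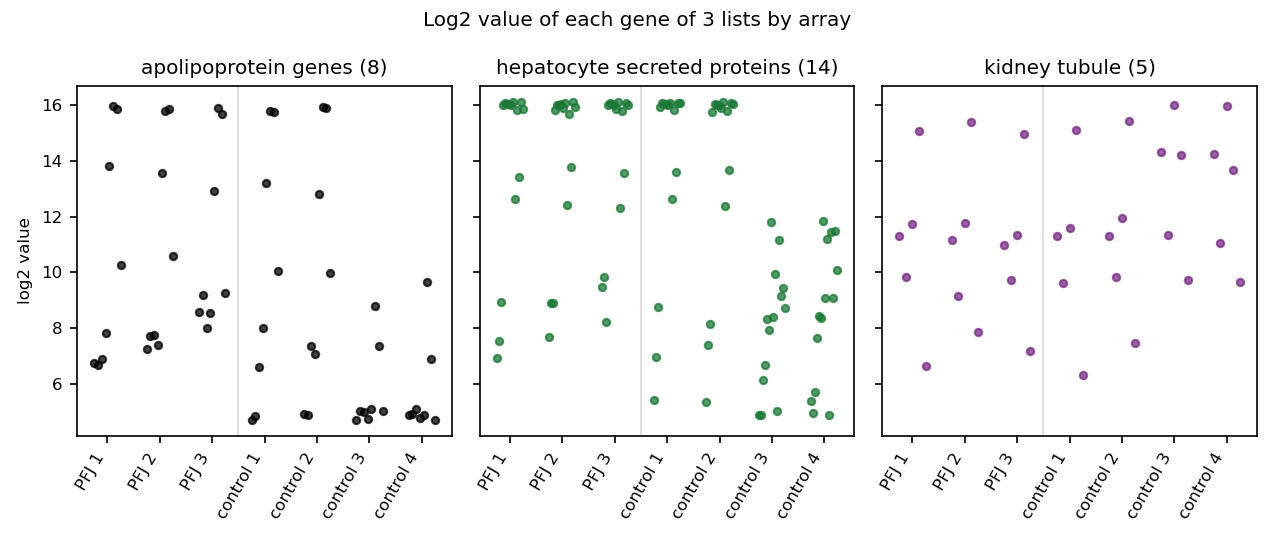
Log2 value of each gene on the 3 PFJ arrays and the 4 control arrays, a point per gene, for the 8 apolipoprotein genes (left), 14 genes of proteins secreted by hepatocytes (middle) and 5 kidney tubule genes (right). On control replicates 3 and 4, the values of 6 of the 8 and 13 of the 14 genes lie below those on all other arrays, and 4 of the 5 kidney tubule genes lie above. Heights of different genes are not comparable, because each has its own probe.

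Over all 7 arrays, each of the 8 genes had a log2 fold change above 0, as did 52.3% of all tested genes. The median over the 8 was 2.83, beside 0.03 over all genes tested. The 14 tested genes of hepatocyte secretion had a median of 2.80, and 14 of them were above 0. *Apoa1*, *Apoa2*, *Apoc1* and *Apoc3* had been picked out by the study on these same arrays, so the direction of the apolipoprotein list is not independent of them. For *Apoc1* and *Apoc3* the study also ran real-time PCR on the same RNA, and reported comparable directions with smaller fold changes. With the adjusted p of limma held under 0.05, 0 of the 8 genes were called, beside 0% of all genes, among which the lowest value was 0.0524. With the unadjusted p held under 0.05, *Apoa1*, *Apoc1* and *Apoc3*, 3 of the 8, were higher with PFJ and 0 were lower, beside 2.17% of all genes higher and 2.6% lower. In *Apoa1* and *Apoc1* every PFJ value exceeded every control value, which was so for 3.45% of all genes. Both had passed the filter on detection through the PFJ arrays alone, so these values describe them and are no support for a difference.

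Without control replicates 3 and 4, a fit chosen after the arrays had been seen, the values of *Apoa1* and *Apoc1* moved little and those of the other 6 came closer to 0. The median over the 8 was 0.41, beside -0.01 over all 3543 genes tested, and 7 of the 8 were above 0, beside 47.3% of all genes. The log2 fold change of *Apoa1* was 2.87, its standard error 0.68 and its unadjusted p 0.00531. For *Apoc1* these were 2.57, 0.53 and 0.00249. These were the only 2 of the 8 with an unadjusted p under 0.05, beside 1.35% of all genes higher and 1.44% lower at that threshold, and for each of the 8 limma gave an adjusted p of 0.999. In both genes all PFJ values lay above both control values, which was so for 7.23% of all genes. Since both could enter the test only through the PFJ arrays, these values describe them and are no support for a difference. The standard errors of *Apoa2*, *Apoc4* and *Apoe* fell to 0.32, 0.19 and 0.18 in this fit, against 2.32, 2.51 and 1.92 over 7 arrays.

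**Figure D3:**
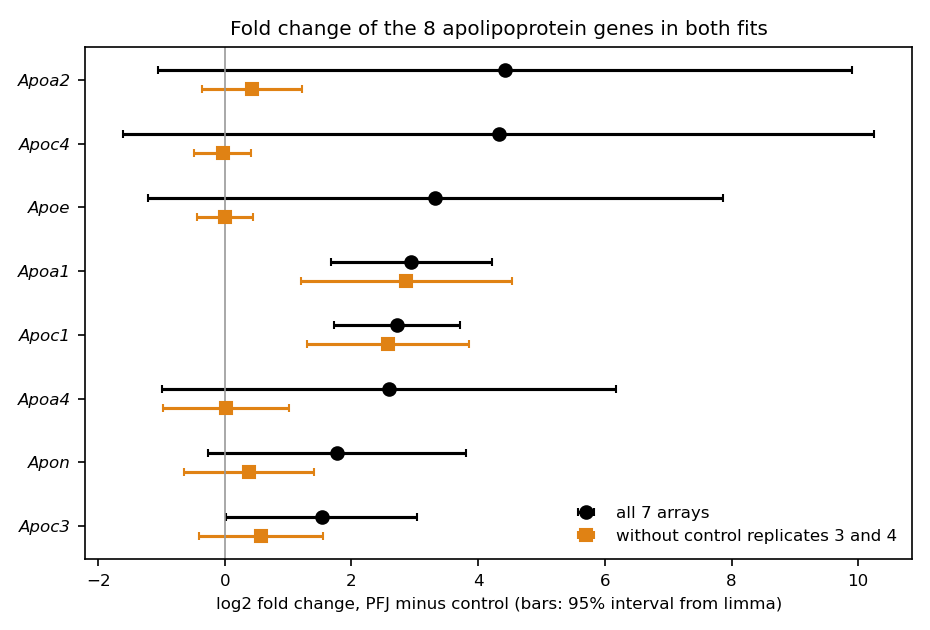
Log2 fold change, PFJ minus control, of the 8 apolipoprotein genes with 95% intervals from limma, over all 7 arrays (black circles) and without control replicates 3 and 4 (orange squares). *Apoa1* and *Apoc1* keep values of 2.94 and 2.71 over 7 arrays and 2.87 and 2.57 over 5, and the other 6 move to between -0.03 and 0.57.

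The order of the PFJ arrays differed between the genes. By signal, by log2 value and by the authors' normalised value alike, PFJ replicate 3 was the highest PFJ array for *Apoa1*, *Apoc1* and *Apon* and the lowest for *Apoa2* and *Apoa4*. For *Apoc3*, *Apoc4* and *Apoe* its place among the PFJ arrays changed between these scales. Within the PFJ group the highest signal was 2.58-fold the lowest for *Apoa1*, 2.49-fold for *Apoa2* and 2.94-fold for *Apoa4*. By signal, the spread among the 3 PFJ arrays of *Apoa2* and *Apoa4* thus covered the whole range of the 5 arrays. By log2 value this held for *Apoa4*, whereas for *Apoa2* control replicate 2 was lowest, at 12.82 against 12.91 on PFJ replicate 3. *Apoa1* and *Apoc1* were 2 of 14 probes on the chip that all 3 PFJ arrays and none of the 4 control arrays detected, which is 0.0545% of all probes, and 13 probes showed the reverse, which is 0.0506%. Of the 14, 10 had PFJ replicate 3 highest and PFJ replicate 1 lowest of the PFJ arrays, and *Apoa1* and *Apoc1* were among these. The share of all probes with this order was not counted.

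The genes whose log2 values over the 7 arrays were most like those of each member differed between the 2 patterns. For *Apoa1* they were *Apoc1* (r = 0.993), the thyroid hormone carrier *Ttr* (r = 0.989) and the secreted ribonuclease *Rnase4* (r = 0.988), and for *Apoc1* they were *Apoa1*, the major urinary protein *Mup6* (r = 0.990) and *Ttr* (r = 0.990). None of these was detected on a control array. *Ttr* gave 237, 326 and 641 units on PFJ replicates 1, 2 and 3, against 149 to 161 units on the control arrays. *Mup6* gave 652, 1648 and 2777 units with PFJ, against 144 to 168 units in controls. Over the 5 arrays without control replicates 3 and 4, these likenesses of *Apoa1* and *Apoc1* were 0.986 to 0.995. The genes had been picked by r over arrays that include these 5, and all entered the test through the PFJ arrays alone. A high r over the 5 arrays is therefore no separate support for the likeness.

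For the other 6 genes, r over all arrays and over the 5 without control replicates 3 and 4 differed by gene. *Apoe* was most like the complement inhibitor *Serping1*, *Itih4* and *Cyp2c70* at r above 0.999, and over the 5 arrays r was 0.74, 0.18 and 0.07. *Apoc4* was most like the protease inhibitor *Mug1*, the clotting factor subunit *F13b* and *Ambp*, likewise above 0.999, and over the 5 arrays at -0.49, -0.13 and 0.27. *Apoa2* was most like *Sec14l2*, *Gch1* and *Hc*, at 0.84, 0.77 and 0.88 over the 5 arrays, and *Apoa4* was most like *Ei24*, *Smc6* and *Edem2*, at 0.91, 0.90 and 0.93. *Apoc3* was most like *Mtch2* (r = 0.993, and 0.995 over the 5 arrays), and *Apon* was most like *Map3k20* (r = 0.998, and 0.984). All these are descriptions over arrays that share 2 groups and the same split among the controls.

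**Figure D4:**
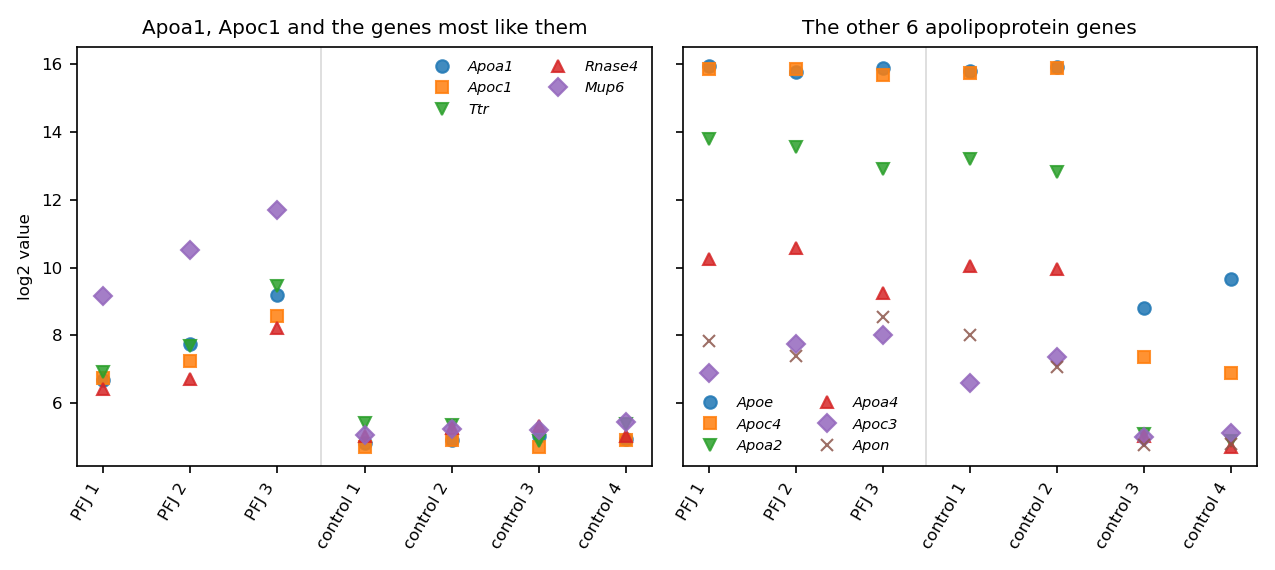
Log2 values on the 3 PFJ and 4 control arrays of *Apoa1*, *Apoc1* and the genes most like them (left) and of the other 6 apolipoprotein genes (right), where heights of different genes are not comparable because each has its own probe. On the left all 4 control arrays are low, and on the right only control replicates 3 and 4 are.

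The 2 patterns of probe signal cut across the gene clusters. In the RefSeq annotation of the NR genome (assembly mArvNil1.pat.X), which held 7 of the 8 symbols and not *Apon*, *Apoa1*, *Apoc3* and *Apoa4* followed each other on chromosome 26. *Apoc4*, *Apoc1* and *Apoe* followed each other on chromosome 1, and *Apoa2* lay apart from both on chromosome 16. *Apoa1* was undetected on control replicates 1 and 2, where its neighbours *Apoc3* and *Apoa4* were detected. *Apoc1* lay between *Apoc4* and *Apoe*, both bright on control replicates 1 and 2, and was itself undetected there. The mouse probe of *Apoa1* and the brighter one of *Apoc1* reached at most 3.95 and 2.90 times background on any array. Lack of detection on a control array thus does not show that the gene was silent there.

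The values that the authors had normalised, with those under 10 set to 10 as their methods state, were also compared as ratios of group means. The ratio was 25.8 for *Apoa1*, 18.0 for the brighter probe of *Apoc1* and 9.02 for its dimmer probe, where all 4 control values were below 10 and the control mean was therefore the floor of 10. For *Apoa2*, *Apoc4* and *Apoe* the ratios were 2.67, 1.90 and 1.96, against 21.5-fold, 20.0-fold and 10.0-fold from the mean log2 values, in which 2 low arrays weigh more. Without control replicates 3 and 4 the ratios were 1.34 for *Apoa2*, 1.50 for *Apoc3*, 1.25 for *Apon*, 1.04 for *Apoa4*, 0.988 for *Apoe* and 0.951 for *Apoc4*, while those of *Apoa1* and *Apoc1* kept the floor as their control mean.

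Other apolipoprotein genes added few values. Of 12 others on the array, 9 were detected on no array, including those of *Apoa5*, *Apoh* and *Apom*. *Apof*, a regulator of cholesterol ester transfer in other species, gave 170, 207 and 235 units on PFJ replicates 1, 2 and 3, against 144, 149.9, 162 and 176 units on control replicates 1, 2, 3 and 4, and was detected on PFJ replicates 2 and 3 alone. The 2 others tested were the chaperone *Clu* and the acute-phase protein *Saa1*, at log2 fold changes of 0.80 and 0.54, and at -0.04 and -0.79 without control replicates 3 and 4.

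In the lists of genes that act with apolipoproteins, 0 genes passed the adjusted threshold of limma. Over all tested genes, 52.3% had a log2 fold change above 0 and the median was 0.03. Without control replicates 3 and 4 these were 47.3% and -0.01. Of 15 genes of lipoprotein assembly and secretion on the array, 4 were tested. All 4 had a log2 fold change above 0, and their median was 0.64, and -0.05 without control replicates 3 and 4. The triglyceride synthase *Dgat2* had 1.42 and the vesicle coat GTPase *Sar1b*, needed for export of large particles, had 0.62. Of 14 genes of HDL and triglyceride-rich particle remodelling on the array, 10 were tested. Among these, 9 were positive, with a median of 1.15, and of -0.03 without the 2 arrays. *Lcat*, which esterifies the cholesterol of HDL, had 4.22 over all arrays and -0.08 over the 5, and *Pon1*, an HDL-bound esterase, had 1.39 and 0.42. Over all 7 arrays, no gene of these 2 lists passed an unadjusted p of 0.05.

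Among 6 tested genes of lipoprotein receptors and uptake, of 16 on the array, 4 were positive, beside 52.3% of all tested genes. Their median was 1.42, and 0.04 without control replicates 3 and 4. The remnant receptor *Lrp1* had a log2 fold change of 2.19 and 0.11 in these fits. *Vldlr*, a receptor that binds apolipoprotein E, had -0.88 over all arrays and 1.69 over the 5, with log2 values of 8.71, 8.28 and 9.64 on PFJ replicates 1, 2 and 3, against 6.93, 7.49, 12.22 and 12.42 on control replicates 1, 2, 3 and 4. It was high on control replicates 3 and 4, and the PFJ arrays lay above control replicates 1 and 2, as in 7.23% of all genes. The order on these 5 arrays rests on 1 probe, since the other probes of *Vldlr* were detected on none of them. Of 29 transcription factors on the array known to act on apolipoprotein genes, 16 were tested. Among these, 13 were positive, with a median of 0.67, beside 0.03 over all genes. Without control replicates 3 and 4 their median was -0.03. *Cebpa*, a hepatocyte factor, had 1.71 over all arrays and 0.31 over the 5. *Nr2f2*, a repressor of several apolipoprotein promoters, was the only 1 of the 16 with an unadjusted p under 0.05, beside 2.17% of all genes higher and 2.6% lower at that threshold. Its log2 values were 6.75, 5.90 and 5.89 on PFJ replicates 1, 2 and 3, against 6.64, 7.18, 7.92 and 7.54 on control replicates 1, 2, 3 and 4. All 4 control arrays but only PFJ replicate 1 detected it, and that array lay above control replicate 1. The log2 fold change of -1.14 (standard error 0.37, unadjusted p = 0.0179, adjusted p = 0.561 from limma) therefore sets the controls against values that were mostly not detected.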

How the data were processed

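Total RNA labelled as NR liver had been amplified to biotinylated cRNA and hybridised to Illumina MouseRef-8 Version 2 BeadChips. The authors chose RNA by integrity, removed an outlier array by clustering and exported, with software that the labels give as GenomeStudio 2011.1, a deposited table of signal intensity and detection p-value per probe and array, without background correction. They also deposited intensity values normalised by the rank invariant method. Per the labels and methods, their calls used the Illumina custom error model, which needs bead-level spread and was not rerun.

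Here, intensities were background-corrected and quantile normalised with the neqc function (offset 16) of limma 3.58.1 in R 4.3.3. Symbols came from the platform annotation, which gave 23141 probes 1 symbol and did not list 2556. A probe was tested where its detection p was under 0.01 on at least 3 of 7 arrays, with the probe of the highest mean for each gene. PFJ was compared with control by lmFit and eBayes, with Benjamini-Hochberg adjustment over 3734 genes. The offset makes a fold change of a dim probe smaller than its true size. The fit without control replicates 3 and 4 was normalised anew. The fit was tested on simulated data. With 3 and 4 arrays, their number limits the precision.

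Named were all member probes, the 3 genes most like each member by Pearson r over 7 arrays, and at most the 3 genes with the lowest p of each other list; *Vldlr*, *Anpep* and the other marker genes beyond this were named after their values were seen. The members and lists were chosen with earlier results of these data known. All columns of per-sample values were used. Alternatives covered normalisation, background correction, offset, detection filter, probe choice, array weights, a replicate block and leaving out each array.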

Additional observations from a re-analysis of the deposited data

How the results depend on the processing

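Over 18 other settings, 17 of them planned, 131 of 132 log2 fold changes of the apolipoprotein genes were positive and 0 passed the adjusted threshold of limma. Each planned setting kept at least 1 of control replicates 3 and 4, on which 6 of the 8 genes had their lowest values. The share of all genes above 0 was not counted in the planned settings, so the count of positive values is no support for a difference. The value that was not positive was that of *Apoc4*, at -0.034 without control replicates 3 and 4, an alternative chosen after seeing the data. In that fit the median of the 8 genes was 0.41, against 2.83 over all arrays. With the replicate number as a block it was 2.55, the count past the adjusted threshold was 0 for all genes and for the 8, and 2 of the 8 had an unadjusted p under 0.05, beside 0.884% of all genes higher. The same-numbered arrays deviated together only weakly, at r = 0.0889, 0.216 and 0.126, and for PFJ replicates 1 and 2 but not 3 the own number was the best match, so the numbers were not taken to pair the samples. Leaving out each array gave medians of 2.35 to 3.20 and 0 to 1 genes of all tested past the adjusted threshold. With arrays scaled to equal medians, that count was 2, the median of all genes was -0.18 and that of the 8 was 2.64. The medians were 3.66 with the authors' values, 2.08 with an offset of 50 and 1.50 without background correction. The unadjusted calls varied between settings, as did those of all genes: 8 of the 8 were higher at a p under 0.05 with array weights, beside 14.8% of all genes, 6 without control replicate 1 and 6 without control replicate 2, beside 8.42% and 7.21%, and 2 without control replicate 3 or 4, beside 0.773% and 1.02%. Without PFJ replicates 1, 2 and 3 they were 1, 0 and 0 of 6 genes, beside 1.45%, 1.68% and 0.788%, since *Apoa1* and *Apoc1* no longer reached the detection filter. The cause of these shifts was not tested. Counts that hold *Apoa1* and *Apoc1*, which passed the filter through the PFJ arrays alone, are no support for a difference. The probes of *Apoa1*, *Apoc1*, *Apoc3* and *Apon* lay within 4 times background, which limits their folds.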
